A study of Apis mellifera with 12 samples.

Results

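The loci named as serine proteases (*SP*) or serine protease homologues (*SPH*) were followed through honeybee embryogenesis in both sexes. They were chosen by name and status, with earlier results of these data known. A locus counted when its only gene name was *SP*, *SPH*, *cSP* or *cSPH* followed by a number. The authors' estimate also had to have the status OK in all 12 libraries. This gave 38 loci with 37 names out of 17621 loci, of which 17469 had that status throughout. *SP22* is listed as a long locus and a short locus inside it. There were 31 *SP* loci and 7 *SPH* loci, and 0 with a *cSP* or *cSPH* name. A further 11 loci join such a name with another gene (*SP10*, *SP15*, *SP17*, *SP18*, *SP21*, *SP48*, *SPH19*, *SPH37*, *SPH50*, *SPH52* and *SPH56*), and these were not analysed here because their values cannot be split.

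Serine proteases cut peptide bonds with an active-site serine. In insects many of them are secreted as inactive zymogens that activate each other in cascades, which process the Toll ligand Spätzle in dorsoventral patterning and immunity and activate prophenoloxidase for melanization, while others are digestive enzymes of the gut. Serine protease homologues share the fold but lack residues needed for cutting, and some of them act as cofactors in such cascades. The numbered names do not tell which of these roles a honeybee locus has, and none of the 38 matched a symbol in the RefSeq gene table (Amel_HAv3.1), so no role is assigned to a single locus.

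RNA with poly(A) tails came from wild-type whole embryos of *Apis mellifera carnica* from feral colonies, female and male, that had been frozen at 3 ages after egg laying: 10–15 h, then 25–40 h, and 55–70 h. Each of the 6 groups has 2 libraries, and a library was made from a pool of 100, 60 or 30 embryos at the successive ages, from 3 mothers. Eggs were gathered 5 to 15 h after laying, so the age of the youngest group rests on its label. According to the study's methods female embryos came from naturally mated queens and haploid males from unmated queens treated with CO2, and if that holds for these libraries the sex of the embryos and the kind of mother cannot be told apart. The labels do not say that the pools of a group were collected separately, so the spread behind each p-value is that of the sequenced libraries and could be technical.

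The values are FPKM, fragment numbers scaled to transcript length and to each library's mapped fragments, so levels can be compared between loci. Depth in reads is unknown, and the sum of FPKM over all loci rose from between 426254 and 470383 at 10–15 h to between 695328 and 727448 at 55–70 h. Among member values of at least 1 FPKM, 66 of 287 (23.0%) lay outside the authors' own confidence bounds, against 25.8% over all loci, and the largest excess over an upper bound was 1.20 times. *SP13* and *SPH53* exceeded their upper bounds in all 12 libraries. Troponin I (*TpnI*), a muscle gene, was at most 0.484 FPKM up to 40 h and between 262 and 756 FPKM at 55–70 h. *TpnT* went from at most 0.486 to between 149 and 520 FPKM. The muscle locus *Mhc1*, whose status was not OK throughout, read 3.35 to 14.1 FPKM up to 40 h. The yolk protein gene *Vg* stayed at or below 0.198 FPKM throughout. Of the other adult symbols, a locus named *Mrjp1* had means of 0.175, 3.89 and 8.92 FPKM at the 3 ages. A second so named had 0.00771, 0.322 and 1.10, and *Mrjp2* had 1.30, 0.905 and 0.651. The replicate 1 library of males at 55–70 h stands apart: *TpnI* read 262 FPKM there against 587 to 756 in the other 3 libraries of that age, and its root mean square distance from the mean of the 25–40 h libraries was 1.43 on the log2 scale against 1.59 to 1.65 for the others. From the mean of its own age it lay 0.712 away, where female replicate 1 lay 0.709 away. Farther from the means of their own ages lay female replicate 2 of 25–40 h (0.825) and female replicate 2 of 10–15 h (0.748). Between the female libraries of 25–40 h, 12.4% of tested loci differed by more than 1 on the log2 scale, against 10.6% between the males of 55–70 h.

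The family was weakly expressed in young embryos and strongly before hatching. A locus was counted as on in a library at 1 FPKM or more. Between 12 and 14 of the 38 loci were on at 10–15 h, 21 to 24 at 25–40 h, and 36 or 37 at 55–70 h. These are 31.6% to 36.8%, 55.3% to 63.2% and 94.7% to 97.4% of the family, while over all loci the shares were 41.7% to 44.3%, 50.5% to 54.2% and 60.1% to 62.6%. The members together made up 0.0468% to 0.0569% of the FPKM sum at 10–15 h, 0.0420% to 0.104% at 25–40 h and 0.574% to 0.944% at 55–70 h. A single locus, *SP31*, supplied 49.2% to 77.5% of the members' sum at 55–70 h. Without it the members summed to 198 to 242, 252 to 532 and 912 to 2218 FPKM at the successive ages. In whole embryos, a small number of strongly expressing cells and weak expression in many cells cannot be told apart.

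Sorted by the first age at which all 4 libraries reached 1 FPKM, 12 loci were early (on by 10–15 h), 9 were middle (25–40 h) and 14 were late (55–70 h). A further 3 were on in some libraries but in no age completely, and 0 were never on. Early loci were 31.6% of the family and 37.3% of all loci with a valid status, middle loci 23.7% and 11.6%, and late loci 36.8% and 8.63%. Loci never on made up 14.9% of all loci. The mean was highest at 55–70 h for 30 of the 38 members (78.9%, against 51.2% of all loci), including 7 of the 12 early ones. Among the 7 homologues, 2 were early (*SPH41*, *SPH53*), 3 middle (*SPH42*, *SPH51*, *SPH54*) and 2 late (*SPH55*, *SPH57*). The sorting depends on the level taken as on. At 5 FPKM only 5 loci were early, 5 middle and 19 late, 4 were incomplete at every age and 5 were never on.

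**Figure D1:**
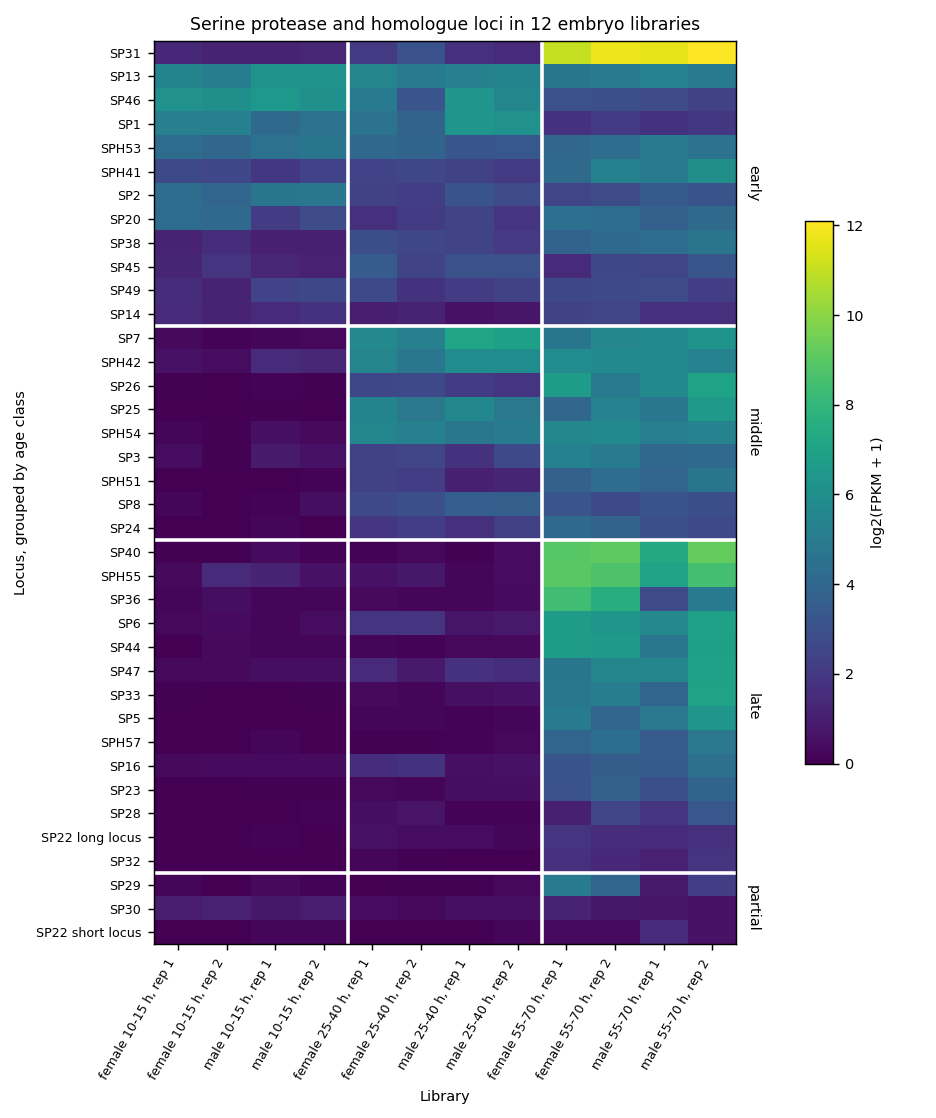
Levels of the 38 loci (rows, grouped by the age at which they came on) in the 12 libraries (columns), coloured by log2(FPKM + 1), with white lines between ages and between groups of loci. Of the loci, 12 were on from 10–15 h, 9 from 25–40 h, 14 from 55–70 h and 3 at no age in all 4 libraries, and *SP31* is the brightest row at 55–70 h.

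Several early loci were lower in older embryos, although all 12 were still on in all 4 libraries at 55–70 h. *SP46*, on chromosome 1 (6699865 to 6704649), read 68.5 and 64.3 FPKM in females against 85.5 and 66.6 in males at 10–15 h. At 25–40 h it read 30.8 and 8.19 in females and 76.8 and 45.2 in males, and at 55–70 h 7.05, 6.69, 6.07 and 4.27 in the 4 libraries. All 4 libraries of the oldest embryos were thus below every younger one. *SP46* fell in both steps, by 1.16 (SE 0.34, adjusted p = 0.0101) and then by 2.21 (SE 0.34, adjusted p = 2.78e-04) on the log2(FPKM + 1) scale, averaged over the sexes (limma). In males the libraries of 10–15 h and 25–40 h overlapped, and the steps were not tested within each sex.

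*SP1* and *SP2* are neighbours on chromosome 5, 463 bases apart (14103627 to 14106512 and 14106976 to 14109147), and were called lower in different steps on average over the sexes. At 10–15 h *SP1* read 37.1 and 37.7 FPKM in females against 16.9 and 22.8 in males. At 25–40 h it read 23.3 and 13.6 in females but 77.8 and 68.5 in males, and at 55–70 h 2.30 to 3.22 in all 4 libraries. Averaged over the sexes it fell in the second step (−3.34, SE 0.20, adjusted p = 3.06e-07) and was not called in the first (0.41, SE 0.20, adjusted p = 0.0927), where the female mean went from 37.4 to 18.5 FPKM and the male mean from 19.9 to 73.2. The steps were not tested within each sex. *SP2* read 14.2 to 25.7 FPKM at 10–15 h, 3.52 to 7.78 at 25–40 h and 4.80 to 9.73 at 55–70 h. It fell in the first step by 1.83 (SE 0.18, adjusted p = 4.63e-06) and was not called in the second (0.37, SE 0.18, adjusted p = 0.0982).

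*SP20* and *SPH53* were called lower at 25–40 h than at either other age when averaged over the sexes. *SP20* had female means of 17.5, 2.82 and 19.1 FPKM at the 3 ages and male means of 4.63, 3.63 and 14.6, and the male libraries of the first 2 ages overlapped. The averaged fall was 1.29 (SE 0.22, adjusted p = 3.74e-04) and the rise 2.09 (SE 0.22, adjusted p = 1.97e-05). *SPH53* had female means of 16.4, 15.1 and 17.0 FPKM and male means of 23.6, 8.82 and 27.2, so the lower level at 25–40 h was in the males. Its averaged fall was 0.72 (adjusted p = 0.00305) and the rise 0.83 (adjusted p = 0.00187). Both loci were called for the interaction of sex and age. *SP14*, at 1.20 to 2.35 FPKM in the youngest embryos, also fell by 0.57 (adjusted p = 0.0105) and then rose by 1.19 (adjusted p = 1.41e-04), but the first call ended without male 10–15 h replicate 2 (adjusted p = 0.0528).

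Only *SP13* and *SP49* of the 34 loci tested were called in neither step. *SP13* was the second most abundant member of the youngest embryos by its mean, at 42.5 and 33.6 FPKM in females and 69.7 and 71.8 in males, and still read 25.1 to 39.4 at 55–70 h. Its step differences were −0.42 (adjusted p = 0.0506) and −0.30 (adjusted p = 0.161), so the first lies at the edge of the threshold. From 10–15 h to 25–40 h its female mean went from 38.1 to 37.6 FPKM and its male mean from 70.7 to 40.0. The steps were not tested within each sex. *SP49* was low at every age, between 1.28 and 5.88 FPKM. The female minus male differences at 10–15 h lay just outside the threshold: −0.89 for *SP13* (limma adjusted p = 0.0502) and −1.14 for *SP49* (0.0534). The remaining early loci, *SP38*, *SP45*, *SPH41* and *SP31*, started between 1.07 and 5.41 FPKM, and all were called higher in at least 1 step. *SPH41* read 2.86 to 5.41 FPKM at 10–15 h, 3.17 to 4.91 at 25–40 h and 17.1 to 61.3 at 55–70 h, a rise of 2.76 in the second step (SE 0.29, adjusted p = 1.73e-05).

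**Figure D2:**
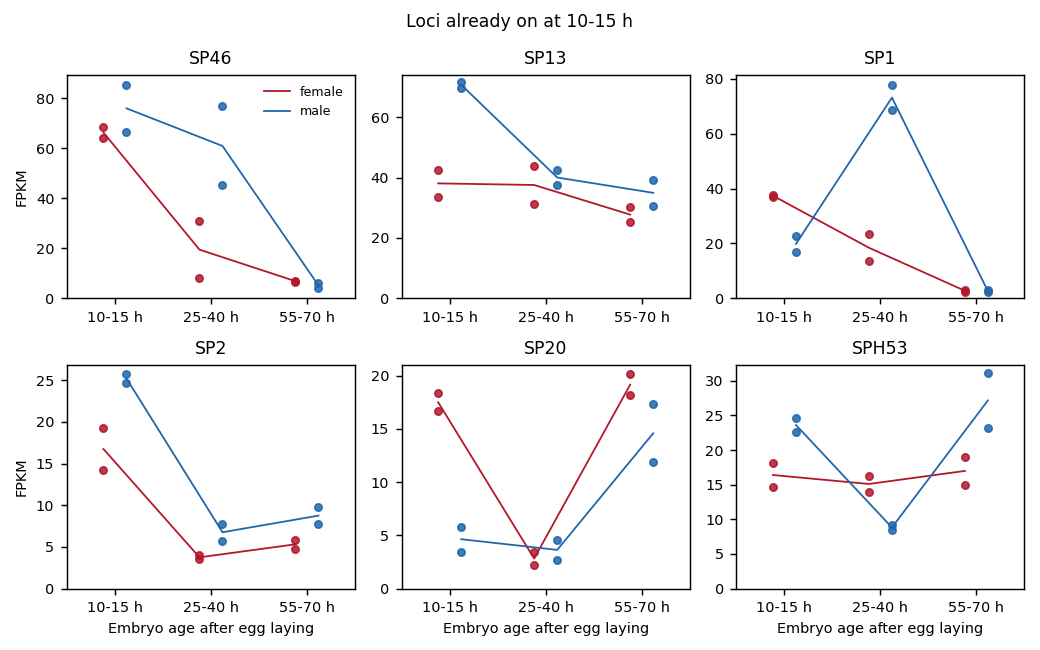
FPKM (linear axes from 0) of 6 loci on from 10–15 h, by embryo age, with points for single libraries (red female, blue male) and lines through the means of the 2 libraries of a group. *SP46* fell from 64.3 to 85.5 FPKM at 10–15 h to 4.27 to 7.05 at 55–70 h, while *SP1* in males was highest at 25–40 h (77.8 and 68.5).

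The middle loci were first on in all 4 libraries at 25–40 h, and 8 of the 9 were below 1 FPKM in every library of 10–15 h. *SP7*, on chromosome 5, read 0.0855 to 0.247 FPKM at 10–15 h. At 25–40 h it read 51.0 and 37.3 FPKM in females and 140 and 112 in males, and at 55–70 h 24.9 and 48.0 in females and 52.5 and 69.6 in males. Every library of 25–40 h was thus above every library of 10–15 h. The rise was 6.01 (SE 0.23, adjusted p = 7.82e-09). *SP7* was the 1 member to rise and then fall, and the fall (−0.68, SE 0.23, adjusted p = 0.0255) did not pass without any 1 of 4 libraries: replicate 1 of females or of males at 25–40 h or at 55–70 h (largest adjusted p = 0.0979).

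*SPH54*, *SPH42* and *SP25* also rose in the first step and were not called in the second. *SPH54* read 0.0657 to 0.413 FPKM at 10–15 h, 25.9 to 46.0 at 25–40 h and 34.7 to 52.5 at 55–70 h. The first step was 4.87 (SE 0.16, adjusted p = 4.54e-09) and the second 0.33 (adjusted p = 0.105). *SPH42* was the exception at 10–15 h, with 0.498 and 0.316 FPKM in females and 1.72 and 1.44 in males (−0.88, SE 0.28, adjusted p = 0.0709 for the sexes). It then read 25.8 to 58.3 and 40.2 to 56.7 FPKM at the later ages, with a first step of 4.58 (SE 0.19, adjusted p = 1.53e-08). *SP25* went from at most 0.0529 FPKM to 26.5 to 49.3 (a rise of 5.15, SE 0.41, adjusted p = 1.09e-06), and at 55–70 h its libraries spread from 14.8 to 92.4, with no call in the second step (−0.02, adjusted p = 0.974). *SP8* reached lower levels, at 5.34 to 11.4 FPKM from a highest value of 0.376 (a rise of 3.02, SE 0.18, adjusted p = 1.48e-07), and 5.53 to 8.11 at 55–70 h.

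The other 4 middle loci rose in both steps. *SP26* read at most 0.0785 FPKM at 10–15 h, 2.67 to 5.42 at 25–40 h and 31.5 to 128 at 55–70 h. Its steps were 2.27 (SE 0.35, adjusted p = 1.63e-04) and 3.78 (SE 0.35, adjusted p = 7.05e-06). *SP3* went from at most 0.836 FPKM to 2.26 to 5.42 and then 15.7 to 38.2, *SPH51* from at most 0.0776 to 1.06 to 4.06 and then 12 to 24.9, and *SP24* from at most 0.112 to 2.21 to 3.93 and then 5.38 to 17.1. For these 3 the second step was between 1.38 and 2.46, and all adjusted p-values lay at or below 1.37e-04.

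Late expression was dominated by *SP31*, which lies on chromosome 1 (17221166 to 17222610). It counted as early at 1.20 to 1.60 FPKM at 10–15 h, close to the level taken as on, with lower confidence bounds of 0.782 to 1.09. At a level of 5 FPKM it was late. It read 3.21 and 7.26 FPKM in females against 2.17 and 1.78 in males at 25–40 h. At 55–70 h it read 2056 and 3489 FPKM in females and 3138 and 4348 in males. It then ranked 74th, 28th, 26th and 14th among all loci of the 4 libraries, and supplied 49.2% to 77.5% of the members' summed FPKM. The mean rose 904-fold between the last 2 ages, or by 9.55 on the log2(FPKM + 1) scale (SE 0.25, adjusted p = 3.70e-09), and the sexes did not differ by more than the spread (−0.46, SE 0.35, adjusted p = 0.507).

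Among the 14 late loci, which do not include *SP31*, *SP40* and *SPH55* reached the highest levels. *SP40* was at or below 0.326 FPKM in the 8 libraries of the first 2 ages and read 497 and 548 FPKM in females against 158 and 590 in males at 55–70 h (a rise of 8.43, SE 0.33, adjusted p = 2.80e-08). *SPH55* was at or below 1.76 FPKM in the younger embryos, with the higher values at 10–15 h, and read 507 and 421 FPKM in females against 126 and 356 in males at 55–70 h (7.82, SE 0.34, adjusted p = 4.14e-08). In both loci every library of the oldest embryos was far above every younger one, and male replicate 1 was the lowest of the 4. *SP44* went from at most 0.237 FPKM to 101 and 91.1 in females and 25.8 and 114 in males (5.97, SE 0.36, adjusted p = 3.08e-07). *SP6*, which had reached 2.67 and 2.53 FPKM in females against 0.606 and 0.756 in males at 25–40 h, went to 103 and 84.2 in females and 50.3 and 119 in males (5.13, SE 0.24, adjusted p = 6.57e-08).

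*SP36* differed from these by sex and is described with the sex differences. The other late loci were *SP47* (25.1 to 120 FPKM at 55–70 h), *SP33* (14.3 to 123), *SP5* (14.6 to 76.9), *SPH57* (9.95 to 26.3), *SP16* (7.71 to 21.3), *SP23* (6.72 to 13.7), *SP28* (1.09 to 8.69), the long *SP22* locus (1.79 to 2.63) and *SP32* (1.16 to 2.56). *SP32* is listed at 0 in the 4 libraries of 10–15 h and in both male libraries of 25–40 h.

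All 14 late loci were lower in male replicate 1 of 55–70 h than in replicate 2, by a median of 1.40 on the log2 scale, whereas the median tested locus was 0.13 higher in replicate 1. In females of that age 7 of the 14 were lower in replicate 1. The troponin level of that library and its distance from the 25–40 h libraries, given above, moved with this, and their part in it was not tested. Without that library 23 members rose and 2 fell in the second step (32.8% and 18% of all loci tested), and *SP31*, *SP40*, *SPH55*, *SP44*, *SP36* and *SP6* rose by 5.43 to 9.67.

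**Figure D3:**
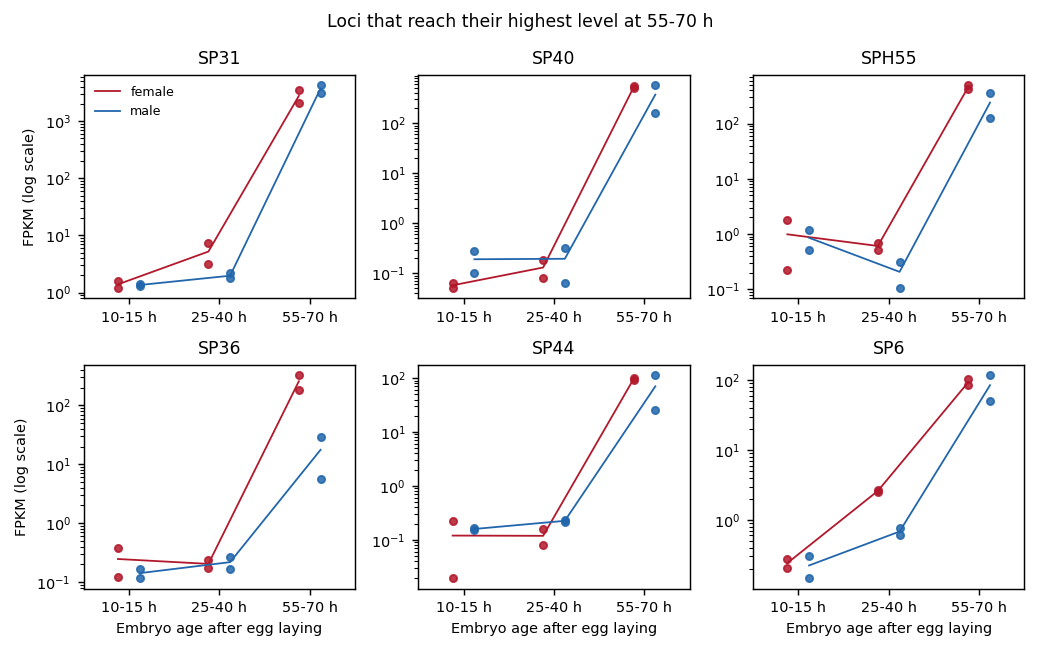
FPKM (log axes) of *SP31* and 5 late loci by embryo age, with points for single libraries (red female, blue male) and lines through the means of the 2 libraries of a group. At 55–70 h *SP31* lay between 2056 and 4348 FPKM, and *SP36* at 331 and 185 in females against 5.68 and 29.6 in males.

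Of the 38 members, 34 had a mean of at least 1 FPKM and were tested with all 10105 such loci. A locus that is high at a single age can pass this filter through that age, so the counts describe the 34 and are read against the same filter over all loci. In the step from 10–15 h to 25–40 h, 15 of the 34 rose (44.1%, against 47.6% of all loci tested) and 5 fell (14.7% against 23.6%). In the step from 25–40 h to 55–70 h, 23 rose (67.6% against 36.4%) and 3 fell (8.82% against 19%). The median difference of the members was 0.32 in the first step, where that of all loci was 0.50, and 2.19 in the second, where that of all loci was 0.23. The steps share the 25–40 h libraries. There were 9 members that rose in both steps (26.5%, against 16.3% of all loci tested) and 1 (*SP46*) that fell in both (2.94% against 5.27%). Without the filter 27 of the 38 rose in the second step (71.1% against 33.6%).

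The scaling of the libraries moved the all-locus median. With median-ratio scaling the median of all loci was 0.08 in the first step and 0.00 in the second, and the share of rises among all calls went from 66.9% to 51.0% and from 65.7% to 50.4%. With quantile normalization these shares were 48.8% and 40.0%. The members that rose in the second step numbered 23 under each scaling (67.6%). Of all loci tested 30.2% rose in that step with median-ratio scaling and 24.4% with quantile normalization. In the first step 13 members rose with median-ratio scaling (38.2%, against 38.2% of all loci tested). With quantile normalization 10 did so (29.4% against 33.9%).

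The 3 loci on in some libraries only were *SP29*, *SP30* and the short *SP22* locus. *SP30* read 0.985, 1.18, 0.701 and 0.877 FPKM at 10–15 h, 0.179 to 0.427 at 25–40 h and 1.24, 0.731, 0.631 and 0.528 at 55–70 h. It thus lay near the level taken as on at the youngest and oldest ages. The short *SP22* locus (chromosome 6, 1865442 to 1865878) read 1.72 FPKM in male replicate 1 of 55–70 h and at most 0.523 in every other library. It lies inside the long locus (1864496 to 1879846), and reads of overlapping loci cannot be told apart here.

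Differences between the sexes were fewer than those between ages. At 10–15 h 1 of the 34 members was higher in females (1.84% of all loci tested) and 0 were lower (7.23%), with 4 lower at an unadjusted p under 0.05 (limma). At 25–40 h 2 were higher (7.96%) and 3 lower (6.68%), and at 55–70 h 2 were higher (0.327%) and 0 lower (0.317%), with 5 lower at an unadjusted p under 0.05. Averaged over the ages 2 were higher (3.75%) and 2 lower (8.18%). There were 24 of the 34 members (70.6%, against 73.8% of all loci tested) without any call by sex or for the interaction of sex and age. The median difference of the members was −0.05, −0.01 and −0.05 at the 3 ages, while that of all loci was −0.11, −0.03 and −0.19. With median-ratio scaling the medians at 55–70 h were 0.19 and 0.03. The members' median was −0.30 at 10–15 h with a pseudocount of 0.1, where that of all loci was −0.23. After rescaling to the same sum the members' median at 25–40 h was −0.15, where that of all loci was −0.21. Members whose 2 female libraries both exceeded both male ones numbered 5, 14 and 11 of 38 at the 3 ages, against 19.4%, 27.7% and 13.2% of loci tested, and the opposite numbered 15, 13 and 6, against 42.5%, 23.6% and 35.4%. The 38 include the 4 members with a mean under 1 FPKM, whereas the shares leave out all loci under that filter.

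*SP36*, on chromosome 2 (4363680 to 4365738), had the largest sex difference of the family. In the 8 libraries of the first 2 ages it was between 0.115 and 0.373 FPKM. At 55–70 h it read 331 and 185 FPKM in females and 5.68 and 29.6 in males, so the sexes did not overlap, with a 14.6-fold higher mean in females. The female minus male difference was 4.12 (SE 0.56, adjusted p = 0.0139). Without male replicate 1, which stands apart, it was 3.02 (SE 0.35, adjusted p = 0.00859, with 1 male library), and without female replicate 1 it did not pass (adjusted p = 0.153). The SE pools all 6 groups, and *SP36* was near 0 in 4 of them. *SP36* rose in the second step by 5.62 (SE 0.40, adjusted p = 9.15e-07), averaged over the sexes.

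*SP29*, on chromosome 9 (1483320 to 1488241), had the same order of libraries at a lower level. It was at most 0.221 FPKM up to 40 h and listed at 0 in female replicate 2 of 10–15 h. At 55–70 h it read 29.4 and 14.3 FPKM in females and 0.856 and 3.74 in males, again without overlap. The difference was 2.86 (SE 0.43, adjusted p = 0.0235), and 2.19 without male replicate 1 (adjusted p = 0.0459). It did not pass without female 55–70 h replicate 1 or without either male library of 10–15 h (largest adjusted p = 0.195).

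At 25–40 h *SP1*, *SP46* and *SP7* were lower in females. The differences were −1.97 (SE 0.28, adjusted p = 0.00144) for *SP1*, −1.81 (SE 0.48, adjusted p = 0.0303) for *SP46* and −1.50 (SE 0.32, adjusted p = 0.0112) for *SP7*. In each the 2 female libraries were below both male ones. *SP1* passed without any 1 of the 12 libraries (largest adjusted p = 0.0209), *SP46* did not without 5 of them (largest 0.202) and *SP7* did not without 2 (largest 0.0990). *SP16* read 2.02 and 2.40 FPKM in females against 0.411 and 0.499 in males at this age (1.14, SE 0.33, adjusted p = 0.0433). *SPH51* read 4.06 and 3.54 FPKM in females and 1.06 and 1.38 in males (1.12, SE 0.30, adjusted p = 0.0333), and these 2 calls ended without 10 and 8 of the libraries. Male libraries of 25–40 h lay nearer to the 10–15 h mean (root mean square distance 1.61 and 1.76) than female ones (2.01 and 1.95), so at this age the distance moved with sex. Its part in these differences was not tested.

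At 10–15 h *SP20* was the 1 member called. It read 18.4 and 16.6 FPKM in females and 3.45 and 5.82 in males, with no overlap (1.75, SE 0.32, adjusted p = 0.0183), and the call ended without any 1 of these 4 libraries (largest adjusted p = 0.149). On average over the ages *SP2* was lower in females (−0.63, SE 0.14, adjusted p = 0.0253), with estimates of −0.58, −0.70 and −0.63 at the 3 ages. *SP7* was also lower on average (−0.76, adjusted p = 0.0301), and *SP36* (1.41, adjusted p = 0.0259) and *SP29* (0.88, adjusted p = 0.0466) were higher. The estimates of *SP7* at the 3 ages were 0.005, −1.50 and −0.79. Those of *SP36* were 0.12, −0.02 and 4.12 and those of *SP29* −0.10, −0.12 and 2.86, so both of these averages rest on 55–70 h. The calls on average over the ages did not pass without 7 (*SP2*), 10 (*SP7*), 7 (*SP36*) and 9 (*SP29*) of the 12 libraries, each left out in turn (largest adjusted p = 0.118). When only the 4 libraries of an age were fitted, none of the 8 calls by sex at an age passed (adjusted p from 0.0686 to 0.466). That fit called 0 of 10105 loci at any age, while 3410, 2235 and 935 had an unadjusted p under 0.05 (limma).

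**Figure D4:**
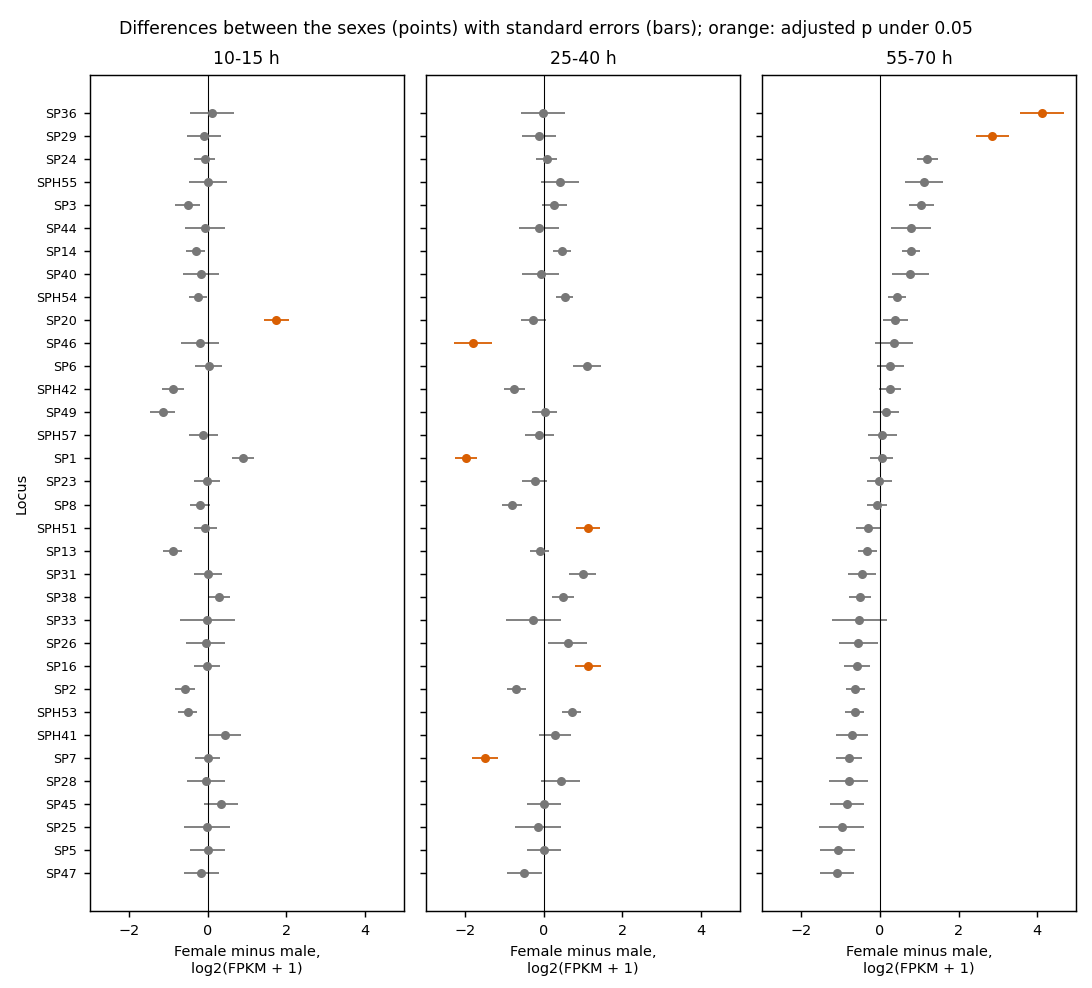
Female minus male difference in log2(FPKM + 1) for the 34 members tested (rows, in the order of 55–70 h) at the 3 ages, with points for the estimates, bars for standard errors and orange for an adjusted p under 0.05. *SP36* (4.12) and *SP29* (2.86) stand out at 55–70 h, *SP1* (−1.97) at 25–40 h and *SP20* (1.75) at 10–15 h.

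Members that lie within 20 kb of each other were compared side by side. On chromosome 9 *SP5* (1473028 to 1478295), *SP29* and *SPH51* (1504262 to 1507758) lie 5024 and 16020 bases apart. *SP5* was at most 0.119 FPKM up to 40 h and read 30.5 and 14.6 FPKM in females against 27.2 and 76.9 in males at 55–70 h, so the sexes overlapped where those of *SP29* did not. *SPH51* was on from 25–40 h. On chromosome 13 *SP33* (2787900 to 2800551) and *SP25* (2806360 to 2821047) lie 5808 bases apart, and at 25–40 h *SP33* was at 0.165 to 0.481 FPKM while *SP25* was at 26.5 to 49.3. By 55–70 h *SP33* read 26.1 and 33.0 FPKM in females and 14.3 and 123 in males. The sexes were not called different (−0.53, SE 0.70, adjusted p = 0.730). Without male replicate 1 the difference passed (−2.03, SE 0.25, adjusted p = 0.0101), but that value sets both females against 1 male library, which is assumed to vary like the other groups.

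On chromosome 6 *SP47* (1847410 to 1854196), *SPH57* (1854137 to 1863161) and the long *SP22* locus follow each other. *SP47* and *SPH57* overlap by 60 bases, so reads there may be shared. *SP47* was already at 0.793 to 2.33 FPKM at 25–40 h and *SPH57* at 0.0362 to 0.196. Both rose by 55–70 h, by 4.24 (SE 0.31, adjusted p = 1.18e-06) and 4.01 (SE 0.26, adjusted p = 5.61e-07).

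**Figure D5:**
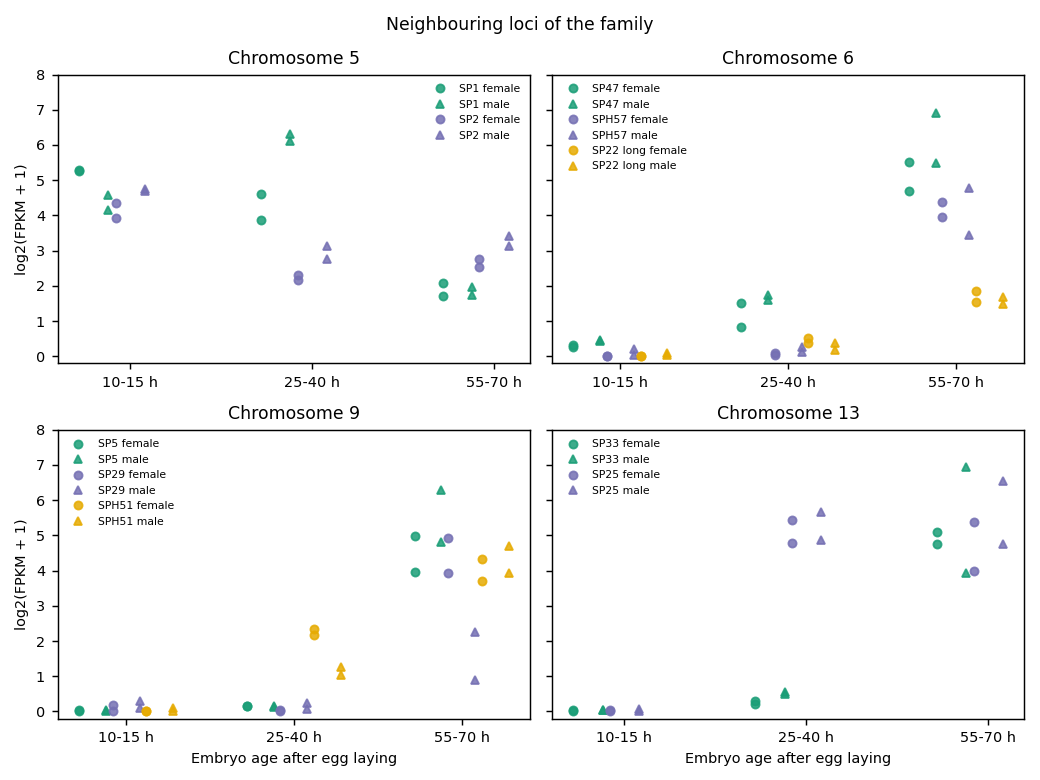
Levels in log2(FPKM + 1) of neighbouring loci on 4 chromosomes by embryo age, with circles for female and triangles for male libraries and a colour for each locus. *SP25* was on at 25–40 h (26.5 to 49.3 FPKM) where *SP33* was at 0.165 to 0.481 FPKM, and *SP29* separates the sexes at 55–70 h.

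Other genes of the pathway were taken from lists of symbols. Serpins inhibit serine proteases. Of 5 symbols matched 4 rose in the first step and 4 in the second, against 47.6% and 36.4% of all loci tested. At 25–40 h 1 was higher in females, against 7.96%. The median differences of the steps were 1.02 and 0.93, where those of all loci were 0.50 and 0.23. By their symbols *spn-E*, *Spn* and *serp* are the names of other genes in *Drosophila*, so the serpins proper are *serpin-3* and *serpin-5*. The counts and medians above are thus not of serpins alone. *serpin-3* rose in both steps (limma adjusted p = 0.00412 and 0.0102), while *serpin-5* was not called in the first step (adjusted p = 0.0522). *serpin-5* had means of 1.42, 3.87 and 55.0 FPKM at the 3 ages, rose by 3.63 in the second step (SE 0.33, adjusted p = 5.32e-06) and was higher in females at 25–40 h (1.60, SE 0.46, adjusted p = 0.0417). Of 14 loci with Toll and dorsoventral symbols 7 rose and 4 fell in the first step and 5 rose and 2 fell in the second (medians 0.44 and 0.32), where 47.6%, 23.6%, 36.4% and 19% of all loci tested did so. Both loci named *Dl*, a symbol used for Delta as well as dorsal, are among the 7, and 1 of them is among the 5. *Toll-1*, named for the receptor, fell in both steps, from a mean of 70.3 to 22.8 and 13 FPKM (adjusted p = 2.03e-04 and 0.0128). *spz2*, named for a Spätzle ligand, rose in the second step by 4.00 (SE 0.34, adjusted p = 3.66e-06), from a mean of 0.281 to 22.1 FPKM. Of 12 loci for immune recognition and effectors 10 were tested. In the first step 5 of them rose and 3 fell, against 47.6% and 23.6% of all loci tested. In the second 4 rose and 2 fell, against 36.4% and 19% (medians 0.74 and 0.08 in the 2 steps).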

How the data were processed

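The authors deposited, for each of the 12 libraries, FPKM of every locus, the bounds of its confidence interval and a status. TopHat2, Bowtie2 2.2.6 and Cufflinks 2.2.1 stand in the submitters' processing notes. For parameters, strand use and genome build, the sources used here give nothing. Coordinates are those of the files, and chromosome numbers came from symbols shared with the RefSeq table (95.2% to 100% of matched genes per chromosome named the same one).

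The analysis used log2(FPKM + 1) of the 10105 loci whose status was OK everywhere and whose mean reached 1 FPKM. With limma 3.58.1 (R 4.3.3) the 6 groups were fitted jointly, leaving 6 residual degrees of freedom, and variances were shrunk to a trend (prior degrees of freedom 4.42). Tests covered the sexes at each age (female minus male) and on average, both steps between ages with the sexes weighted equally, and whether the sex difference depended on age. Benjamini–Hochberg adjustment ran over all loci, with a threshold of 0.05. The log2 scale with 1 added understates changes of low loci. The script was tested on simulated data, where the recovery asked of it for a sex difference was lowered after the first draw fell short. Other software was Python 3.11.15 (pandas 2.3.3, numpy 2.4.6, matplotlib 3.10.9).

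The members and the lists were chosen with earlier results of these data known. Loci were named by rule: up to 6 per age class by highest group mean, up to 6 called per direction of a comparison by size, those called for the interaction, and members within 20 kb of each other. Further members were named after their values were seen. Marker lists checked the label of whole embryos: all 4 patterning genes fell in the second step (2 rose and 1 fell in the first). Both troponins tested rose in the second step. Of 4 loci with adult symbols 1 was tested, a locus named *Mrjp1*, which rose in both steps.

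Settings varied 1 at a time were the pseudocount (0.1 or 5), the filter (5 FPKM or none), the status (any), the value (midpoint of the bounds), the scaling (median-ratio, quantile, or equal sums as TPM), the variance trend (none), the libraries fitted (those compared, or all without 1) and a replicate block. For the age classes they were levels of 0.5 and 5 FPKM and the midpoint of the bounds. Replicate numbers do not pair the libraries.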

Additional observations from a re-analysis of the deposited data

Results flagged for a closer look

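In 5 members the sex difference changed with age by the interaction test of limma (10% of all loci tested). *SP1* had an adjusted p of 0.00689, with females higher by 0.90 at 10–15 h (not called), lower by 1.97 at 25–40 h and equal within the spread at 55–70 h, and it passed under every alternative run, each library left out included. The interaction calls of the others did not pass without 2 (*SP36*), 3 (*SP29*), 8 (*SP20*) and 10 (*SPH53*) of the 12 libraries, each left out in turn, and under 3 (*SP20*) and 4 (*SPH53*) of the other alternatives. *SP36* (adjusted p = 0.0147) and *SP29* (adjusted p = 0.0182) were higher in females at 55–70 h, while their differences at the younger ages were within 0.12 of 0. *SP20* (adjusted p = 0.0401) was called higher in females at 10–15 h and at no other age. *SPH53* (adjusted p = 0.0468) had differences of −0.51, 0.71 and −0.64 at the 3 ages, none of which passed by itself.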

How the results depend on the processing

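Most calls by age held. Of 26 calls in the second step 25 passed under every alternative run that tested the locus (the exception was *SP7*). Of 20 calls in the first step 14 did. The number that rose was 15 to 16 and 23 to 24 in the 2 steps with each library left out, and the number that fell 4 to 6 and 2 to 4. Counts by sex moved more when a library was left out: 0 to 2 higher and 0 to 3 lower in females at 10–15 h, 0 to 3 and 1 to 4 at 25–40 h, 0 to 4 and 0 to 1 at 55–70 h, 0 to 6 in each direction on average, and 1 to 8 for the interaction.

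The fit of only the libraries compared gave 0 calls by sex at each age, and it gives no value for the average or the interaction. Shares of all loci called under the same setting follow in parentheses, except for interactions. Median-ratio scaling gave 2 higher (7.43%) and 3 lower (10.6%) in females at 10–15 h, 5 falls in the second step (29.8%) and 10 interactions. Quantile normalization gave 2 higher at 10–15 h (3.13%), and 1 higher (4.97%) and 1 lower (4.91%) on average. It gave 8 (35.6%) and 6 falls (36.6%) in the 2 steps. The 2 members it called higher in females at 25–40 h (8.75%) share 0 with the 2 named in the report. It reversed the first step of *SP31* (−0.0393), *SP16* (−0.0629) and *SP49* (−0.5333). The filter of 5 FPKM left 26 members, and *SP16* and *SP29* (means of 4.67 and 4.08 FPKM) were not tested under it. It gave 1 lower at 10–15 h (13.1%), 0 higher at 25–40 h (9.25%) and 1 higher at 55–70 h (0.103%). A pseudocount of 0.1 gave 3 lower at 10–15 h (11.3%), 1 higher at 55–70 h (0.0693%) and 1 higher on average (3.62%). A pseudocount of 5 gave 1 lower at 10–15 h (5.90%), 0 higher at 25–40 h (6.92%) and 4 higher at 55–70 h (0.811%). Rescaling to the same sum gave 3 lower at 10–15 h (13.8%), 6 lower at 25–40 h (10.6%), and 1 higher (3.61%) and 4 lower (21.1%) on average. No filter, with 38 members, gave 0 higher at 25–40 h (4.84%) and 0 higher (1.55%) and 1 lower (2.35%) on average. The midpoint of the bounds gave 2 lower at 10–15 h (9.25%), and loci of any status 1 higher on average (3.45%). Apart from the members that the filter of 5 FPKM left out, the cause of these shifts was not tested. For the age classes, a level of 5 FPKM gave 5 early, 5 middle and 5 never on, and a level of 0.5 FPKM gave 1 incomplete locus.

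Over 15 pairs of groups the deviations of equally numbered libraries correlated between −0.279 and 0.166, with 3 above 0.1, so the numbers give no pairing. A replicate block gave 1 higher in females on average and 3 interactions.

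With 2 libraries a group, no depth in reads and 1 library of 55–70 h males apart, sex differences of single loci are the weakest results. Of the 12 libraries, female replicate 2 of 25–40 h lay farthest from the mean of its own age (0.825 on the log2 scale). Levels near 0 are imprecise.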
